A study of Mus musculus with 9 samples.

Results

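The genes described here are 9 histone variants of the mouse testis, taken as the entries of the deposited expression table that carry the symbols Hist1h1t, Hist1h2ba, H3f3a, H3f3b, H2afz, H2afv, H2afy, H1f0 and H1fx, among 38685 genes and loci in all. They were chosen by name and not by their values. RNA came from testes of C57BL/6 males, freed of the tunica albuginea, and was read near the 3′ end of polyadenylated transcripts with QuantSeq. The study compared 3 wildtype (Prm2+/+), 3 heterozygous (Prm2+/-) and 3 Prm2-deficient (Prm2-/-) males. Prm2 encodes protamine 2, one of the small basic proteins that replace histones in the sperm nucleus, and the alleles were made by CRISPR/Cas9 editing of oocytes. Heterozygous males of these lines are fertile and Prm2-/- males are infertile. The sources used here do not give the age of the males or which edited line they came from.

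Histone variants are encoded outside the set of replication-dependent histone genes or are expressed in particular cells, and they replace canonical histones in nucleosomes between rounds of DNA synthesis. Spermatogenesis uses them heavily. The linker histone H1t (Hist1h1t) and the core histone TH2B (Hist1h2ba) appear in spermatocytes, H3.3 (H3f3a and H3f3b) replaces H3 on the sex chromosomes and at active genes, and most histones are then exchanged for transition proteins and finally protamines in elongating spermatids. H2A.Z (H2afz and H2afv) and macroH2A (H2afy) replace H2A, while H1.0 (H1f0) and H1X (H1fx) are replacement linker histones. Whether the levels of these transcripts differ between genotypes is the question that the design puts to these genes.

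Both H3.3 genes encode the same protein from different coding sequences, and the H2A.Z genes encode proteins that are nearly alike. The first 150 coding bases of each are shown to describe how the pairs differ, with capitals at the bases that differ between the members of a pair. The reads lie near the 3′ end, and the merged exons are 3504 (H3f3a), 2976 (H3f3b), 1776 (H2afz) and 1633 (H2afv) bases long. Few reads may therefore cover the bases shown, and which bases separate the counts of a pair was not tested. The sequences were read from the GENCODE M21 transcripts of GRCm38.
H3f3a: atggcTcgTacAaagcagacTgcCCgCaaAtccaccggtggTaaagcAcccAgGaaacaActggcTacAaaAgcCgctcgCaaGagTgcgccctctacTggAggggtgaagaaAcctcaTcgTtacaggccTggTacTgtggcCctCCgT
H3f3b: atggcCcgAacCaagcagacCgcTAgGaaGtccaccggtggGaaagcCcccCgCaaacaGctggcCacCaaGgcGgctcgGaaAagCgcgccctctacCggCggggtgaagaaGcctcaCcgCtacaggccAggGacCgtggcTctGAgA
H2afz: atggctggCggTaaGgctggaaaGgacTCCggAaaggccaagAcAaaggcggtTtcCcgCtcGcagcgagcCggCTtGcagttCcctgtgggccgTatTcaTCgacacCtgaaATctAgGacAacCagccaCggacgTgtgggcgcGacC
H2afv: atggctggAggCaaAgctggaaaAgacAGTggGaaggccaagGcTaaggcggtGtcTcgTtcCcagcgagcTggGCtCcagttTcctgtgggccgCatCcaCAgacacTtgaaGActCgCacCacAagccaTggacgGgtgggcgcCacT
Over the whole coding sequence of 411 bases, H3f3a and H3f3b differed at 95 bases, 81 of them at the last base of a codon, which left 76.9% identity. H2afz and H2afv differed at 81 of 387 bases, 70 of them at the last base of a codon, with 79.1% identity. All 9 genes have a promoter in RefSeq on GRCm38.p6, of 250 bases before and 50 bases after the start. The windows of Hist1h1t (chr13:23695561-23695860, plus strand) and Hist1h2ba (chr13:23934107-23934406, minus strand), the testis-specific members, are shown with capitals at the letters of 5 motifs, each searched on both strands: the CCAAT box (CCAAT), the TATA box, here written TATAAA and matched in no other spelling, the octamer of H2B promoters (ATTTGCAT), the cAMP response element, which is TGACGTCA, and the AC box of H1 promoters (AAACACA).
Hist1h1t: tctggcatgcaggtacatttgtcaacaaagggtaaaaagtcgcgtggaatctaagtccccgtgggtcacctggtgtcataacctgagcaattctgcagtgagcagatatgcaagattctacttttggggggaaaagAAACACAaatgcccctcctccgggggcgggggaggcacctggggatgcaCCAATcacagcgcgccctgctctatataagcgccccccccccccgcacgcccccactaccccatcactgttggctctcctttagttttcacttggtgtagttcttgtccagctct
Hist1h2ba: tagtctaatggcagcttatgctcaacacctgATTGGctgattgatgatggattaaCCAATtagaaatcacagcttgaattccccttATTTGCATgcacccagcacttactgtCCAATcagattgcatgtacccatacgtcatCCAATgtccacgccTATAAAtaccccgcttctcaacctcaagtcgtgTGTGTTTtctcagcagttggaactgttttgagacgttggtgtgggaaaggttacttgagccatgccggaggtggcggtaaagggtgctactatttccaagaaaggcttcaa
Hist1h1t held 1 CCAAT box and 1 AC box. Hist1h2ba held 4 CCAAT boxes, 1 TATA box, 1 octamer and 1 AC box. The windows of Hist1h2ba and of its divergent neighbour Hist1h2aa, a testis H2A gene on the other strand, share 220 bases, with 305 bases between the gene starts of GENCODE M21. Both of these gene starts fall on a start codon. The window of Hist1h2ba is also set from its start codon, so transcription may begin further upstream than the window assumes. Of the other members, H3f3b held 4 CCAAT boxes, 1 TATA box and 1 octamer, H3f3a held 1 CCAAT box and 1 AC box, H2afv held 4 CCAAT boxes and H2afz held 3. H2afy, H1f0 and H1fx held none of these letters. Among 32817 RefSeq promoters of this length, 37.4% held a CCAAT box, 13.6% a TATA box, 1.74% the octamer, 1.79% the cAMP response element and 7.19% the AC box. These matches describe letters and not binding.

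The deposited values are counts that the authors divided by 1 size factor per library, called normalized counts here, and the counts recovered from them summed to between 3629929 and 4490411 per library. The targeted gene, Prm2, was at 29757, 29716 and 39665 normalized counts in the Prm2+/+ libraries, at 30174, 31011 and 34487 in the Prm2+/- libraries and at 34660, 36004 and 42766 in the Prm2-/- libraries. The 3 libraries with the Prm2-/- label did not have less of the transcript, so the RNA level of Prm2 cannot serve as a check of the genotype labels. Replicate 3 of Prm2+/+ stood apart from the other libraries: in 7.25% of the 14893 genes tested it lay below 0.5 times the lowest other library, against 0.477% to 0.96% for the other 8. The LFCs of the tested members against Prm2+/+ are therefore given with and without it. Markers of testis cells were present as the tissue label says, with 36 of 38 listed markers in the table and 1 of them, Amh of Sertoli cells, at 0 in all 9 libraries. The summed level of the 5 elongating spermatid markers was between 199115 and 214225 normalized counts in Prm2+/+, between 195058 and 207992 in Prm2+/- and between 191959 and 200995 in Prm2-/-, and the 5 spermatogonia markers summed to 586 to 781, 801 to 817 and 766 to 774. Replicate 3 of Prm2+/+ had the lowest sum of spermatogonia markers, at 586 against 766 to 817 in the other 8 libraries, and the highest sums of the 4 round spermatid markers in the table, at 6760 against 5836 to 6343, and of the Sertoli cell markers, at 2920 against 2134 to 2648. The spermatogonia markers were split in that library. Dazl was lowest, at 361 against 574 to 687, as were Kit and Zbtb16. Stra8 was highest, at 138 against 25.7 to 104, and Gfra1 was within the range of the others. Of the Sertoli cell markers Clu was highest there, at 2534 against 1649 to 2183, Wt1 was lowest, at 18.8 against 22.8 to 148, and Sox9 and Rhox5 were within the range of the others. In whole testis, fewer cells of a type and less RNA per cell cannot be told apart.

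The members covered a wide range of levels. Levels between genes are given as normalized counts per kb of exon, although a 3′ method reads each transcript near its end and so understates long genes on this scale. The order differs without division by length. Mean normalized counts were 2880 (H3f3b), 440 (H3f3a), 371 (H2afy), 313 (H1fx), 111 (H2afz), 98.1 (H1f0), 15.4 (H2afv), 11.9 (Hist1h2ba) and 6.46 (Hist1h1t). Per kb H3f3b was highest, with a mean of 968 normalized counts over the 9 libraries (538 to 1164), followed by H1fx at 257 (208 to 362) and H3f3a at 125 (57.7 to 150). On this scale these 3 did not overlap each other in any library. H2afz followed at 62.7 (3.11 to 96.0), H2afy at 54.4 (24.0 to 66.2) and H1f0 at 47.7 (43.0 to 54.8), and each of these neighbours overlapped the next. H3f3a overlapped H2afz only through replicate 3 of Prm2+/+, was at 127 or above in the other 8 libraries and exceeded H2afz in all 9. Hist1h2ba was at 30.9 (20.1 to 38.1), and H2afv at 9.43 (4.06 to 13.9) overlapped Hist1h1t at 7.08 (1.94 to 10.4). The genes known for their testis-specific proteins were therefore among the lowest of the 9 in these libraries, by polyadenylated transcripts. In GENCODE M21, however, Hist1h2ba is a single exon of 384 bases that begins at its start codon. Under such bounds, reads from parts of its transcript outside this exon would not be counted, and its level may be understated. Transcripts that end in a stem-loop without a poly(A) tail, as those of replication-dependent histone genes mostly do, are not captured by this method. The levels are those of polyadenylated transcripts. Hist1h1t and Hist1h2ba lie in the main histone cluster, and how many of their transcripts end in a stem-loop was not tested.

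Differences between genotypes were tested in limma for 14893 genes over all 9 libraries, after adding 1 to each value and taking log2, and a gene was called at a Benjamini-Hochberg adjusted p under 0.05 with a log2 fold change (LFC) beyond 0.5. Of the 9 members 8 had enough counts to be tested, and Hist1h1t had not. Between Prm2-/- and Prm2+/+ 0 of 8 were called, beside 0.181% of all genes tested. Between Prm2+/- and Prm2+/+ 0 of 8 were called, beside 0.0806%, and between Prm2-/- and Prm2+/- again 0 of 8, beside 0.175%. On the recovered counts edgeR also called 0 members in these 3 comparisons, beside 0.161%, 0.0671% and 0.154% of all genes, and DESeq2 called 0, beside 0.88%, 0.396% and 0.739%. At an unadjusted p under 0.05, limma found 1 member lower in Prm2-/- than in Prm2+/+ (H1fx, beside 3.36% of all genes tested) and 0 higher (beside 3.97%). In either direction these make 7.33% of genes in limma, 6.91% in edgeR and 6% in DESeq2, both of which found the same member. For Prm2+/- against Prm2+/+ 0 members passed this limit in limma (beside 2.23% of genes higher, 2.01% lower and 4.24% in all), in edgeR (beside 4.1%) and in DESeq2 (beside 3.44%). For Prm2-/- against Prm2+/- 0 members passed it in limma (beside 3.21% of genes higher, 2.23% lower and 5.44% in all), in edgeR (beside 5.16%) and in DESeq2 (beside 4.55%). The LFC was above 0 in 7 of 8 members for Prm2-/- against Prm2+/+ (beside 52.9% of all genes tested), in 7 of 8 for Prm2+/- against Prm2+/+ (beside 51.9%) and in 6 of 8 for Prm2-/- against Prm2+/- (beside 49%). The median LFC of the members was 0.40, 0.37 and 0.10 in these 3 comparisons, and that of all genes tested was 0.02, 0.01 and -0.01. The first 2 comparisons share the Prm2+/+ libraries. Without replicate 3 of Prm2+/+ the medians were 0.19, 0.05 and 0.10, with 0 members called in limma, beside 0.295%, 0.235% and 0.322% of all genes tested. At an unadjusted p under 0.05 limma then found 0 members higher and 1 lower (H1fx) in Prm2-/- than in Prm2+/+ (beside 5% and 3.4% of all genes tested), 0 in either direction between Prm2+/- and Prm2+/+ (beside 2.39% and 1.8%), and 1 higher (H2afz) and 1 lower (H1fx) in Prm2-/- than in Prm2+/- (beside 4.49% and 3.85%).

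**Figure D1:**
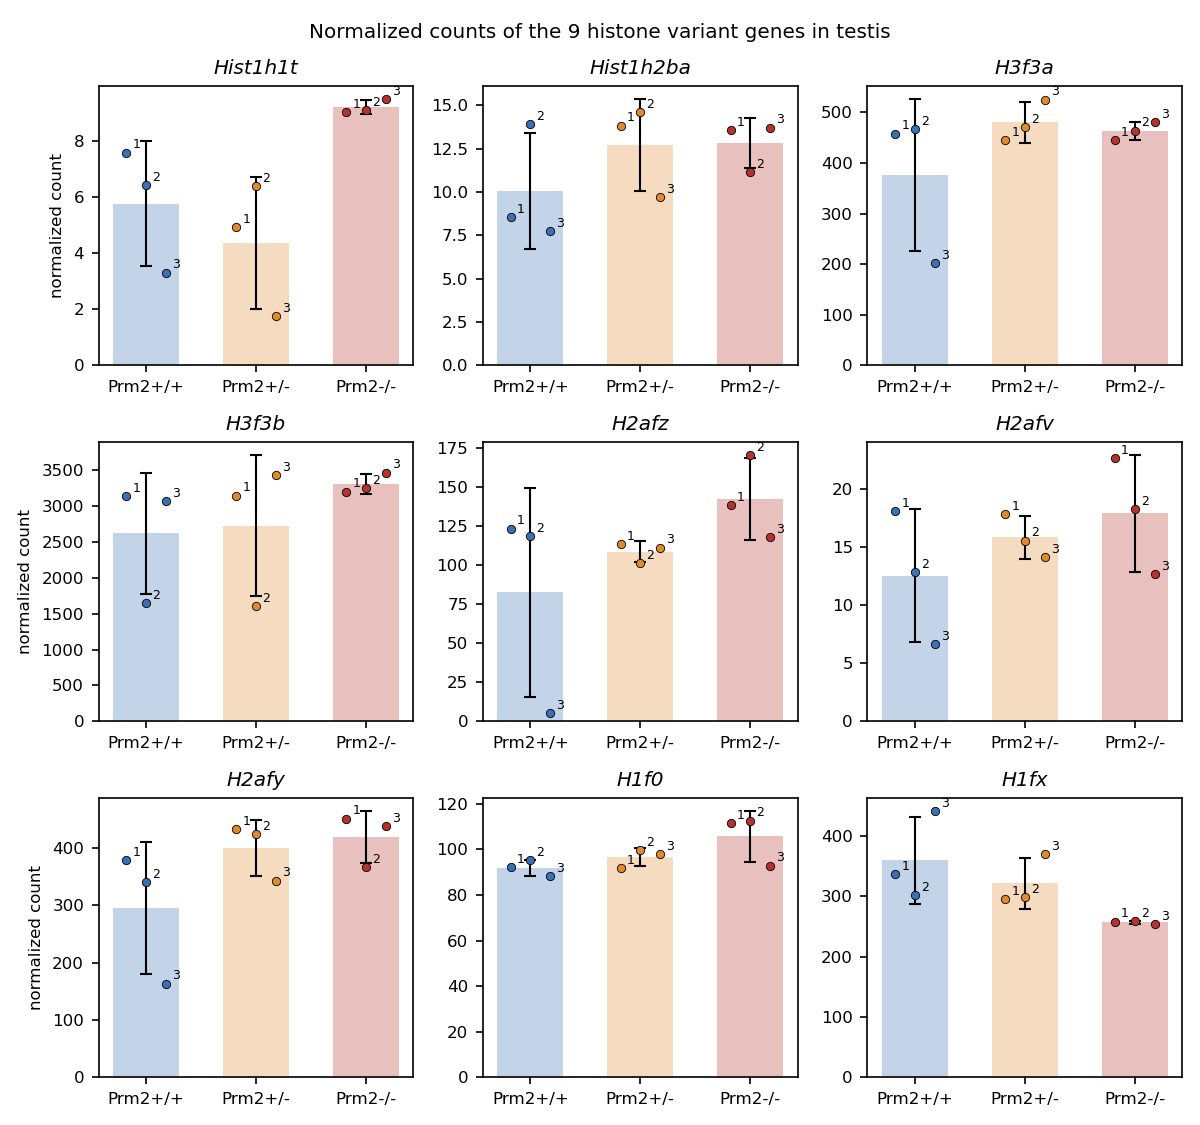
Normalized counts of the 9 histone variant genes (y axis, each panel with its own scale from 0) in testes of the 3 genotypes (x axis). Points are single libraries with their replicate number, bars are means and error bars are the SD of 3 males. Replicate 3 of Prm2+/+ lies far below the other libraries for H3f3a, H2afz and H2afy, replicates 2 of Prm2+/+ and Prm2+/- lie low for H3f3b, and the Prm2-/- libraries lie below the other 6 for H1fx.

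Hist1h1t encodes H1t, the linker histone of spermatocytes and early spermatids, from a single exon on chromosome 13 (GRCm38, 23695814 to 23696725, plus strand). It was at 7.60, 6.43 and 3.31 normalized counts in the Prm2+/+ libraries, at 4.94, 6.39 and 1.77 in Prm2+/- and at 9.06, 9.13 and 9.50 in Prm2-/-. All 3 Prm2-/- libraries lay above the other 6, an order held by 2.37% of the genes tested, of which Hist1h1t is not one. These levels rest on 2 to 10 recovered counts per library. The exact 95% Poisson intervals, which cover counting error only, ran from 4.18 to 17.3 normalized counts in Prm2-/- replicate 2 and from 3.28 to 15.0 in Prm2+/+ replicate 1, so that they overlap. Whether the order over the 9 libraries goes beyond counting error was not tested. In a fit without a filter on low counts the LFC between Prm2-/- and Prm2+/+ was 0.65 (standard error, SE, 0.45, limma adjusted p = 0.800) and between Prm2-/- and Prm2+/- it was 1.05 (unadjusted p = 0.049, adjusted p = 0.918 in limma). The tested genes with a mean of at least 100 normalized counts whose pattern over the 9 libraries was most like that of Hist1h1t were Fzr1 (Pearson r = 0.954), Katnal1 (r = 0.954) and Zfc3h1 (r = 0.947), the best of 5885 genes compared on log2 values. At such low counts these correlations are only a description.

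Hist1h2ba encodes TH2B, the H2B of the male germ line, from a single exon on chromosome 13 (23933773 to 23934156, minus strand), close to Hist1h1t in the main histone cluster. Prm2+/+ libraries held 8.55, 13.9 and 7.73 normalized counts of it, Prm2+/- libraries 13.8, 14.6 and 9.72, and Prm2-/- libraries 13.6, 11.2 and 13.7. The groups overlapped in every comparison. The LFC of Hist1h2ba was 0.36 between Prm2-/- and Prm2+/+ (SE 0.30, limma adjusted p = 0.769) and 0.02 between Prm2-/- and Prm2+/-. The first of these was 0.21 without replicate 3 of Prm2+/+ and 0.59 without replicate 2 of Prm2+/+. Of the windows of 50 bases along its transcript, 38.2% also occur in transcripts of 14 other genes, H2B genes among them, so that its reads may be split with these. Its neighbour Hist1h2aa, whose promoter window overlaps that of Hist1h2ba, was at 4.22 to 8.12 normalized counts over the 9 libraries and was not tested. Genes with the most similar pattern were Cntnap2 (r = 0.942), Akap4 (r = 0.935), which encodes a scaffold protein of the sperm tail, and Psmd2 (r = 0.930), with the same limit as above. Akap4 itself was at 194 normalized counts in replicate 3 of Prm2+/+ and at 208 to 2148 in the other 8 libraries.

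H3f3a and H3f3b encode the replacement histone H3.3. H3f3a (chromosome 1, 180800832 to 180813943, minus strand) was at 458, 466 and 202 normalized counts in Prm2+/+, at 445, 470 and 525 in Prm2+/- and at 446, 464 and 480 in Prm2-/-. The libraries lay close together except for replicate 3 of Prm2+/+, at 0.455 times the lowest of the others. The LFC between Prm2-/- and Prm2+/+ was 0.40 (SE 0.29, limma adjusted p = 0.754) with that library and 0.00 (adjusted p = 0.995) without it. H3f3a overlaps Gm17275 and H3f3aos on the other strand, which were at 3.53 to 39.5 and at 9.96 to 27.5 normalized counts, and 12.3% of its windows of 50 bases also occur in transcripts of 132 other genes.

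H3f3b (chromosome 11, 116021912 to 116027962, minus strand), the most abundant member, had another pattern. It was at 3138, 1648 and 3061 normalized counts in Prm2+/+, at 3143, 1601 and 3422 in Prm2+/- and at 3198, 3244 and 3464 in Prm2-/-. Replicate 2 of Prm2+/+ and replicate 2 of Prm2+/- were low, the other 7 libraries were at 3061 or above, and replicate 3 of Prm2+/+, low for H3f3a, was not low for H3f3b. Both of these libraries lay below 0.6 times the lowest of the other 7 in 18 genes, or 0.121% of those tested, a limit that was set after the values of H3f3b were seen. The Prm2-/- and Prm2+/+ libraries did not overlap. Members with groups that did not overlap numbered 2 of 8 in that comparison (H3f3b and H1fx, beside 14% of all genes tested), 0 of 8 between Prm2+/- and Prm2+/+ (beside 9.44%) and 2 of 8 between Prm2-/- and Prm2+/- (H2afz and H1fx, beside 14.7%). The LFC of H3f3b between Prm2-/- and Prm2+/+ was 0.39 (SE 0.33, limma adjusted p = 0.766), and it was 0.09 without replicate 2 of Prm2+/+ and 0.54 without replicate 3. Between Prm2+/- and Prm2+/+ it was 0.04 (adjusted p = 0.988), and 0.18 without replicate 3 of Prm2+/+. Between Prm2-/- and Prm2+/- it was 0.35 (adjusted p = 0.987), and 0.01 without replicate 2 of Prm2+/-.

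The share of H3f3a in the counts of both H3.3 genes does not depend on the scaling of a library. It was 12.7%, 22.0% and 6.20% in Prm2+/+, 12.4%, 22.7% and 13.3% in Prm2+/- and 12.2%, 12.5% and 12.2% in Prm2-/-. The pair of libraries with little H3f3b lay at 22.0% and 22.7%, the other libraries of each genotype lay between 12.2% and 13.3%, and only replicate 3 of Prm2+/+ lay below, at 6.20% (95% Wilson interval 5.38% to 7.12%, for counting error only). The mean share was 13.7% ± 7.97 in Prm2+/+, 16.1% ± 5.71 in Prm2+/- and 12.3% ± 0.175 in Prm2-/- (SD, n = 3 each). Prm2-/- was 1.35 percentage points below Prm2+/+, written as a difference of -1.35 (two-sided exact permutation test, p = 0.7), and the difference was 2.84 without replicate 2 of Prm2+/+ and -5.09 without replicate 3. Prm2+/- was 2.47 points above Prm2+/+ (two-sided exact permutation test, p = 0.6), which turned to -1.26 without replicate 3 of Prm2+/+, and Prm2-/- differed from Prm2+/- by -3.83 points (two-sided exact permutation test, p = 0.2), and by -0.543 without replicate 2 of Prm2+/-. With 3 males against 3 this test cannot go below 0.1.

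**Figure D2:**
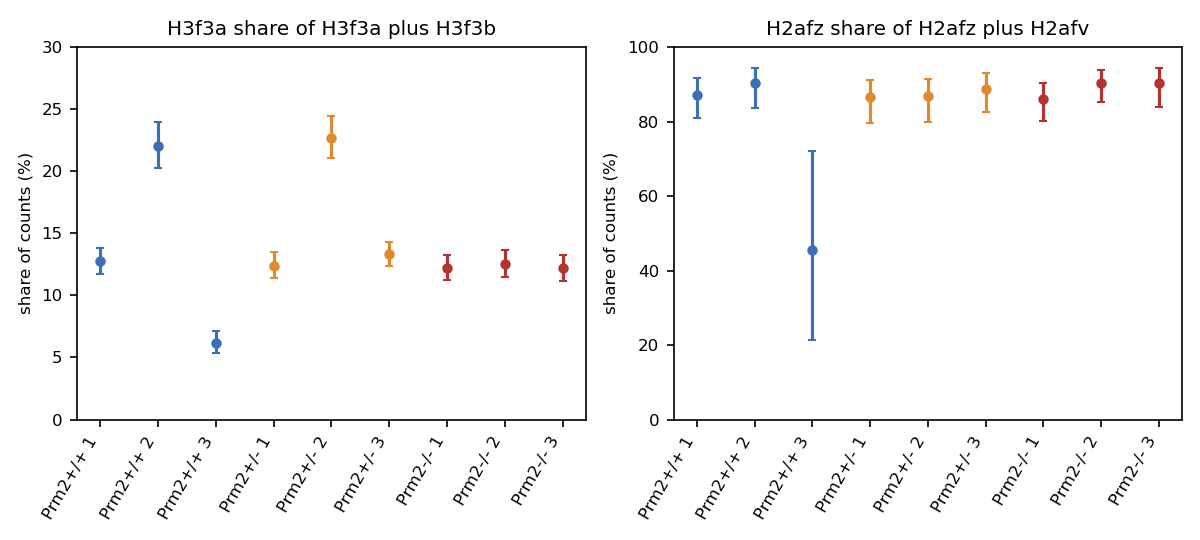
Share of H3f3a in the counts of H3f3a plus H3f3b (left, y axis in %) and of H2afz in the counts of H2afz plus H2afv (right, y axis in %) in each of the 9 libraries (x axis, coloured by genotype). Bars are 95% Wilson intervals from the recovered counts. Replicates 2 of Prm2+/+ and Prm2+/- reach 22.0% and 22.7% on the left, and replicate 3 of Prm2+/+ is lowest in both panels, at 6.20% and 45.5%.

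H2afz (chromosome 3, 137864487 to 137866922, plus strand) and H2afv (chromosome 11, 6427229 to 6444443, minus strand) encode the forms of H2A.Z, a variant placed at promoters by the SRCAP and p400 complexes. H2afz was at 124, 119 and 5.52 normalized counts in Prm2+/+, at 114, 101 and 111 in Prm2+/- and at 139, 170 and 118 in Prm2-/-. Replicate 3 of Prm2+/+, with 5 recovered counts against 111 to 168 in the other libraries, was the extreme of all members: the median of the other 8 libraries was 21.5 times its level (exact 95% Poisson interval of that library 1.79 to 12.9 normalized counts). The other 8 libraries lay within 101 to 170, with the Prm2-/- libraries above all Prm2+/- libraries. The LFC of H2afz between Prm2-/- and Prm2+/+ was 1.62 in limma (SE 1.01, adjusted p = 0.746) and 0.79 in edgeR (adjusted p = 0.923), and it was 0.21 in limma without replicate 3 of Prm2+/+ (adjusted p = 0.743). Prm2+/- and Prm2+/+ differed by an LFC of 1.25 (adjusted p = 0.842 in limma) or 0.39 in edgeR, and the limma value turned to -0.16 without that library (adjusted p = 0.980). Prm2-/- and Prm2+/- differed by 0.37 (SE 1.01, unadjusted p = 0.723 in limma). With replicate 3 of Prm2+/+ out of the fit, and so out of the estimate of the spread, the same LFC of 0.37 had an unadjusted p of 0.036 and an adjusted p of 0.590. Of the windows of 50 bases along H2afz transcripts, 16.9% also occur in transcripts of 4 other genes.

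H2afv was at 18.1, 12.9 and 6.63 normalized counts in Prm2+/+, at 17.8, 15.5 and 14.1 in Prm2+/- and at 22.6, 18.3 and 12.7 in Prm2-/-. Again replicate 3 of Prm2+/+ was lowest, though on 6 counts, and the other groups overlapped. The LFC between Prm2-/- and Prm2+/+ was 0.54 (SE 0.37, limma adjusted p = 0.751), and 0.18 without that library. H2afz made up 87.2%, 90.2% and 45.5% of the counts of both H2A.Z genes in Prm2+/+, 86.5%, 86.7% and 88.7% in Prm2+/- and 86.0%, 90.3% and 90.3% in Prm2-/-. The 45.5% of replicate 3 of Prm2+/+ rests on 11 counts (95% Wilson interval 21.3% to 72.0%), and its upper bound is below the share of every other library. Prm2-/- exceeded Prm2+/+ by 14.6 percentage points (two-sided exact permutation test, p = 0.5), and by 0.121 without that library. Prm2+/- exceeded Prm2+/+ by 13.0 points (two-sided exact permutation test, p = 0.9), which turned to -1.44 without it, and Prm2-/- exceeded Prm2+/- by 1.56 points (two-sided exact permutation test, p = 0.4).

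H2afy encodes macroH2A1, an H2A with a large globular domain that is found on silent chromatin such as the sex body of spermatocytes (chromosome 13, 56073619 to 56136361, minus strand). Its normalized counts were 379, 341 and 164 in Prm2+/+, 432, 424 and 343 in Prm2+/- and 451, 366 and 437 in Prm2-/-. The value of replicate 3 of Prm2+/+ lay at 0.480 times the lowest other library. The remaining ones were between 341 and 451, with overlap between the genotypes. The LFC between Prm2-/- and Prm2+/+ was 0.59 (SE 0.30, limma adjusted p = 0.718), and 0.21 without that library. Between Prm2+/- and Prm2+/+ it was 0.52 (adjusted p = 0.842), and 0.14 without that library. H2afy overlaps Gm47071 on the other strand, which was not analysed here.

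Among the replacement linker histones, H1f0 (chromosome 15, 79028450 to 79030504, plus strand), which encodes the H1.0 of cells that have stopped dividing, was the most even member. It was at 92.2, 95.4 and 88.4 normalized counts in Prm2+/+, at 91.9, 99.6 and 98.1 in Prm2+/- and at 111, 113 and 92.9 in Prm2-/-. Replicates 1 and 2 of Prm2-/- were above all other libraries, and replicate 3 was not. The LFC between Prm2-/- and Prm2+/+ was 0.19 (SE 0.12, limma adjusted p = 0.744), and 0.17 without replicate 3 of Prm2+/+. H1f0 overlaps Gm49544 on the other strand, which was not analysed here.

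H1fx (chromosome 6, 87980421 to 87981637, minus strand), which encodes H1X, was the 1 tested member with an LFC below 0 for Prm2-/- against Prm2+/+. It was at 336, 302 and 441 normalized counts in Prm2+/+, at 296, 299 and 370 in Prm2+/- and at 258, 259 and 253 in Prm2-/-. The Prm2-/- libraries lay close together and below all other 6, an order held by 2.2% of the genes tested, and replicate 3 of Prm2+/+ was the highest of the 9. The mean was 360 ± 72.2 in Prm2+/+, 322 ± 42.2 in Prm2+/- and 257 ± 2.90 in Prm2-/- (SD, n = 3 each). The LFC between Prm2-/- and Prm2+/+ was -0.47 (SE 0.16, unadjusted p = 0.017, limma adjusted p = 0.590), and edgeR gave -0.48 (adjusted p = 0.576). H1fx thus missed the call on the adjusted p and on the LFC. Without replicate 3 of Prm2+/+ the LFC was -0.31 (unadjusted p = 0.034, adjusted p = 0.556 in limma). Over 19 alternatives of the fit and tool it lay between -0.58 and -0.31, with unadjusted p-values between 0.00648 and 0.0440 and adjusted p-values between 0.215 and 0.891. Between Prm2-/- and Prm2+/- the LFC was -0.32 (limma adjusted p = 0.958). For Prm2+/- against Prm2+/+ it was -0.15 (limma adjusted p = 0.843), and 0.0041 without replicate 3 of Prm2+/+. H1fx shares its locus with Gm5577 on the other strand, which was at 15.9 to 29.6 normalized counts, and the counting is not stated to use strand.

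**Figure D3:**
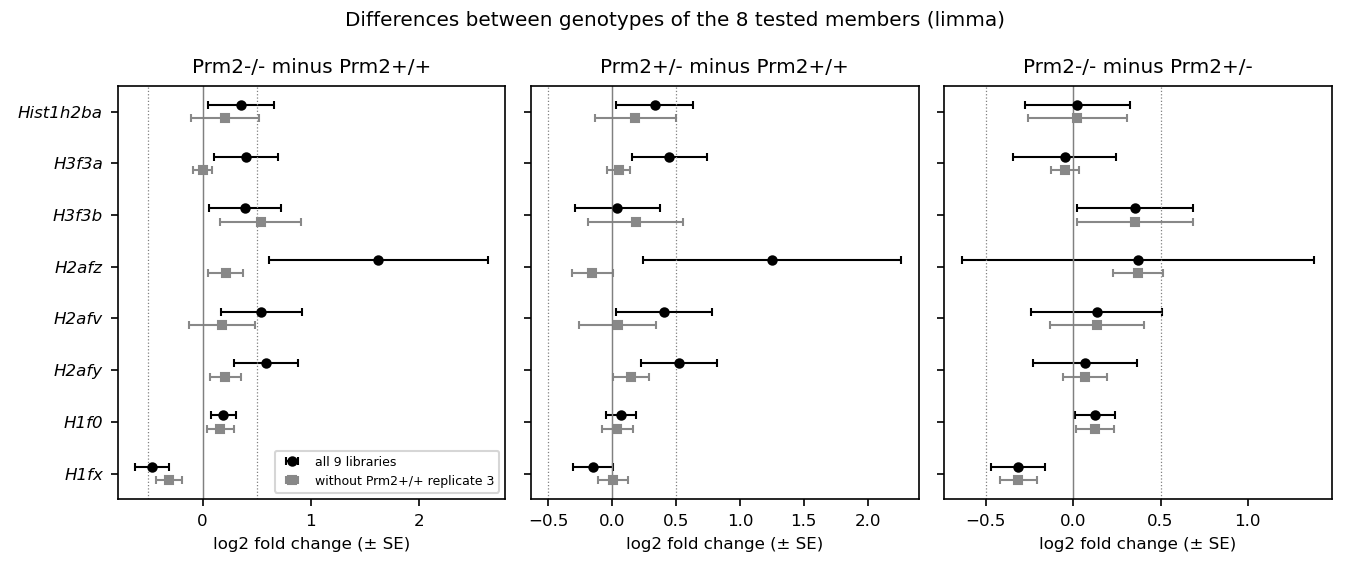
Differences between genotypes for the 8 tested members (x axis, log2 fold change in limma, first genotype minus the second as titled). Points are estimates from all 9 libraries (black circles) and without replicate 3 of Prm2+/+ (gray squares), error bars are standard errors, and dotted lines mark an LFC of 0.5 in either direction. The estimates for H3f3a, H2afz, H2afv and H2afy against Prm2+/+ move toward 0 or past it without that library, and H1fx stays below 0 for Prm2-/- minus Prm2+/+.

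Over the members, replicate 3 of Prm2+/+ was the lowest of the 9 libraries in 6 of the 8 tested members, beside 24.8% of all genes tested, and the highest in 1 (H1fx, beside 23.9%). It lay below 0.5 times the lowest other library in 3 members (H2afz, H3f3a and H2afy), beside the 7.25% given above. H3f3b was within the range of the others there, at 0.97 times the median of the other 8 libraries, H1f0 was lowest by a small margin, at 0.91 times that median, and H1fx was at 1.48 times it. Among the 36 cell type markers 2 also lay below 0.5 times the lowest other library. These were Ccna1 of pachytene spermatocytes at 6.63 normalized counts against 491 to 644 and Spaca1 of round spermatids at 285 against 862 to 1066. The summed pachytene markers of that library, at 8629, were within the 8290 to 9585 of the others, but the single markers were split. Sycp1 was lowest there, at 1566 against 1611 to 2006, as were Sycp3 (538 against 624 to 1083), Piwil1 (2654 against 2792 to 3075) and Ccna1. Pgk2 was highest, at 3864 against 2502 to 3388. The other round spermatid markers were highest in that library, Acrv1 at 1744 against 1302 to 1428, Tssk1 at 1468 against 1053 to 1281 and Tssk2 at 3263 against 2454 to 2799. The part of cell composition or RNA quality in these low values was not tested.

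**Figure D4:**
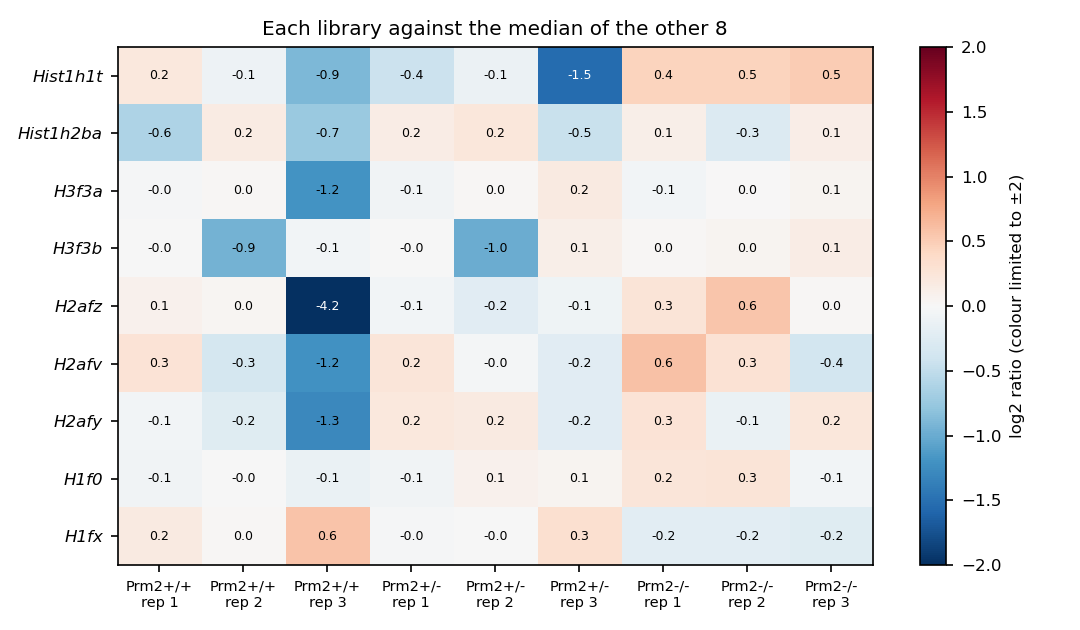
Each library against the median of the other 8 for the 9 members (rows), as a log2 ratio of normalized counts plus 1 (colour and printed value, colour limited to 2 in either direction). Replicate 3 of Prm2+/+ reaches -4.2 for H2afz, and replicates 2 of Prm2+/+ and Prm2+/- are at -0.9 and -1.0 for H3f3b.

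Other histone genes were taken as a list of 40 symbols, of which 34 are in the table and 19 were tested. In limma 0 of them were called in any of the 3 comparisons. At an unadjusted p under 0.05, 0 were higher and 1 was lower in Prm2-/- than in Prm2+/+ (beside 3.97% and 3.36% of all genes tested), 0 were higher or lower in Prm2+/- than in Prm2+/+ (beside 2.23% and 2.01%), and 0 were higher and 1 was lower in Prm2-/- than in Prm2+/- (beside 3.21% and 2.23%). In either direction edgeR found 2, 1 and 1 below that limit (beside 6.91%, 4.1% and 5.16%) and DESeq2 2, 0 and 0 (beside 6%, 3.44% and 4.55%), and both called 0. The median LFC of the 19 was -0.08, -0.04 and -0.07. Without replicate 3 of Prm2+/+ limma found 0 below that limit in either comparison with Prm2+/+ (beside 5% of all genes tested higher and 3.4% lower in Prm2-/-, and 2.39% and 1.8% in Prm2+/-), and 0 higher and 3 lower in Prm2-/- than in Prm2+/- (beside 4.49% and 3.85%). The 4 with the smallest p between Prm2-/- and Prm2+/+ were led by 1700024P04Rik (1109 ± 116 normalized counts in Prm2+/+ and 939 ± 25.8 in Prm2-/-, LFC -0.24, adjusted p = 0.677 in limma). The others were the testis H2A gene H2al2a (2162 ± 368 and 1749 ± 200, LFC -0.30, adjusted p = 0.696), the H4 gene Hist1h4c (LFC 0.60, adjusted p = 0.735) and the H2A gene Hist2h2aa1 (LFC -2.49, adjusted p = 0.743). For Hist2h2aa1, replicate 3 of Prm2+/+ was at 2769 normalized counts and the other 8 libraries at 23.2 to 42.4, so that this LFC rests on 1 library. Hist1h1c, a linker histone gene, was lower in Prm2-/- than in Prm2+/- with an LFC of -0.47 (unadjusted p = 0.037, adjusted p = 0.891 in limma). H2afy2, which encodes macroH2A2, was at 0 in replicate 3 of Prm2+/+ and at 14.2 to 25.6 in the other 8, and Cenpa, the centromeric H3, was at 9.94 there and at 22.8 to 37.6 in the others.

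Genes of histone deposition and regulation were taken as a list of 37 symbols of chaperones, remodelers and histone regulators, not all of which act on these variants. Of the 37 symbols 36 are in the table and 35 were tested. In limma 0 were called in any comparison. At an unadjusted p under 0.05, 1 was higher and 0 were lower in Prm2-/- than in Prm2+/+ (beside 3.97% and 3.36% of all genes tested), 0 were higher or lower in Prm2+/- than in Prm2+/+ (beside 2.23% and 2.01%), and 2 were higher and 1 was lower in Prm2-/- than in Prm2+/- (beside 3.21% and 2.23%). In either direction edgeR found 1, 0 and 2 below that limit (beside 6.91%, 4.1% and 5.16%) and DESeq2 0, 0 and 1 (beside 6%, 3.44% and 4.55%), and both called 0. Without replicate 3 of Prm2+/+ limma found 0 higher and 1 lower in Prm2-/- than in Prm2+/+ (beside 5% and 3.4%), 1 higher and 0 lower in Prm2+/- than in Prm2+/+ (beside 2.39% and 1.8%), and 2 higher and 1 lower in Prm2-/- than in Prm2+/- (beside 4.49% and 3.85%). The median LFC of the 35 was 0.02, -0.04 and 0.04, and the first of these was -0.02 in edgeR and in DESeq2. The 4 with the smallest p between Prm2-/- and Prm2+/+ were Asf1b, a chaperone of H3 and H4 (203 ± 32.1 normalized counts in Prm2+/+ and 254 ± 22.4 in Prm2-/-, LFC 0.33, adjusted p = 0.669 in limma), the chaperone gene Nap1l4 (LFC -0.25, adjusted p = 0.720), Daxx, an H3.3 chaperone (LFC 0.17, adjusted p = 0.741), and Vps72, an H2A.Z binding subunit of the SRCAP complex (LFC -0.19, adjusted p = 0.743). Between Prm2-/- and Prm2+/- the 3 below that limit were Chaf1a, the large subunit of the replication-coupled chaperone CAF-1 (LFC 0.69, adjusted p = 0.870 in limma), Npat, a coactivator of replication-dependent histone genes (LFC 0.36, adjusted p = 0.887), and Vps72 (LFC -0.28, adjusted p = 0.904). Asf1a was the only 1 of the 35 below 0.5 times the lowest other library in replicate 3 of Prm2+/+, at 48.6 normalized counts against 98.7 to 128.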

How the data were processed

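Testis RNA of 3 males per genotype was sequenced by the study with QuantSeq. According to the methods and the submitters' processing notes, the authors trimmed reads with Trim Galore 0.4.5, mapped them to GRCm38 with HISAT2 2.1, quantified with StringTie 1.3.3, prepared gene counts with the script of that package, left out pseudogenes and applied DESeq2. What they deposited is a signal on a linear scale: gene counts over a size factor for the library, called normalized counts. In each library 100% of the values were whole multiples of a single step within 1e-06, which gave the recovered counts. For replicate 1 of Prm2+/- the step is close to 1, a weaker sign. These counts derive from coverage, so intervals from them are nominal. The table had 0 columns without a sample and 0 entries without a name.

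Genes were kept by filterByExpr, which left 14893, and fitted in limma (eBayes with a trend) on log2(value + 1) with genotype as the only term. Shares were tested by two-sided exact permutation. Alternatives were TMM factors, pseudocounts of 0.5 and 5, no filter, at least 10 counts in every sample, the 6 samples compared, a replicate block, edgeR, DESeq2 and leaving out each library. Scripts were tested on simulated data. The members, lists and tests were chosen with earlier results of these data known. Named are all members, Prm2, the 3 genes most like Hist1h1t and Hist1h2ba, and up to 4 genes of each list with the smallest p between Prm2-/- and Prm2+/+. Other genes were named after their values were seen. Positions come from GENCODE M21 and promoters from RefSeq. Python 3.11.15 was used with scipy 1.17.1, pandas 2.3.3 and matplotlib 3.10.9, and R 4.3.3 with DESeq2 1.42.0, edgeR 4.0.16 and limma 3.58.1. The libraries came from separate males, and p-values measure the spread between them.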

Additional observations from a re-analysis of the deposited data

How the results depend on the processing

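In all alternatives 0 members were called, with adjusted p-values of at least 0.215. For both lists 0 genes were called in the alternatives run for them (the 6 samples compared, a replicate block, edgeR, DESeq2 and each library left out). The size of the LFC lay on both sides of 0.5 over the settings in 13 of the 24 member LFCs. The direction of a member's LFC or of a difference in shares changed only with a library left out. Over the libraries left out in turn, the LFC between Prm2+/- and Prm2+/+ ranged from -0.26 to 0.39 for H3f3b, from -0.16 to 1.97 for H2afz and from -0.27 to 0.0041 for H1fx. Between Prm2-/- and Prm2+/- it ranged from -0.14 to 0.13 for Hist1h2ba, from -0.10 to 0.017 for H3f3a, from -0.046 to 0.35 for H2afv and from -0.039 to 0.16 for H2afy. The difference in the share of H3f3a ranged from -5.09 to 2.84 percentage points for Prm2-/- against Prm2+/+ and from -1.26 to 6.67 for Prm2+/- against Prm2+/+, and that in the share of H2afz from -1.44 to 21.0 for Prm2+/- against Prm2+/+. The cause was not tested. Hist1h1t was tested only without a filter, and at least 10 counts in every sample left 5 members.

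The labels number the replicates 1 to 3 in each genotype. Over all genes tested, deviations of same-numbered libraries correlated at -0.037 to 0.042, and those of libraries with different numbers at -0.038 to 0.046. Same-numbered libraries thus did not deviate together over all genes. Effects shared by few genes, such as the low H3f3b of replicates 2 of Prm2+/+ and Prm2+/-, are not covered by these correlations. With a replicate block 0 members were called, the LFC of H1fx between Prm2-/- and Prm2+/+ stayed at -0.47 (adjusted p = 0.618 in limma), and the share of H3f3a differed by -1.35 points (exact sign permutation, p = 0.75). Calls over all genes went from 0.181% to 0.101% in that comparison.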
